A study of Drosophila melanogaster with 14 samples.

Results

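Genes that changed in larval testes of *Drosophila melanogaster* after knockdown of both lamins were sorted by function, protein family, tissue of origin and place among their neighbours. The comparison used 6 of the 14 libraries of the series. The 3 Lam-KD libraries came from larvae of the third instar that carried hairpins against *Lam Dm0* (*Lam*) and *Lam C* (*LamC*) under bam-Gal4-VP16, and the 3 controls came from larvae with bam-Gal4-VP16 and no hairpin. The driver is active in late spermatogonia (SpGs) and spermatocytes (SpCs), so that cyst cells and other somatic cells kept their lamins. The hairpin strains were crossed in only in the Lam-KD group, so that strain background and Lam-KD cannot be told apart. Each library was made from poly(A)+ RNA of a separate batch of dissected testes, and held between 6715297 and 7437111 expected reads upon Lam-KD and between 5651960 and 6853903 in the controls.

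Lamins form the meshwork under the inner nuclear membrane. *Lam* encodes the B-type lamin that most cells have, and *LamC* the A-type lamin of differentiated cells. Chromatin that touches the lamina is gene-poor, and its genes are mostly silent or act in a single tissue. Testes at the larval stage hold SpGs and a large population of growing SpCs, with somatic cyst cells around them and often pieces of fat body on the outside.

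Both targets were lower in every Lam-KD library. *Lam* (FBgn0002525) had 16.7, 15.1 and 14.9 TPM in Lam-KD testes, against 87, 96.8 and 69.7 TPM in control testes, with a log2 fold change of -2.50 ± 0.09 (SE). *LamC* (FBgn0010397) had 8.35, 9.36 and 7.08 TPM in Lam-KD testes, against 28.6, 32.1 and 19.2 TPM in control testes, with a log2 fold change of -1.76 ± 0.14. TPM gives the share of a gene among all transcripts of a library after correction for length. All fold changes below are on the log2 scale, Lam-KD over control, from edgeR's fit, and calls required both an adjusted *P* (Benjamini-Hochberg) below 0.05 and means of TPM more than 1.5-fold apart. Of the 10318 genes tested, 6.41% were called, 3.19% as higher and 3.22% as lower upon Lam-KD, and these shares are the background for each family. The median log2 fold change of all genes was 0.01, with quartiles of -0.23 and 0.21. The threshold on mean TPM did not fall evenly on both directions. A gene could be called higher at 0.51, while another at -0.66 was not called lower despite an adjusted *P* below 0.05.

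Few of the germline genes listed here were called. The wider sets of SpC-specific and SpG-expressed genes of the paper were not examined, and the paper reports its SpC-specific genes as mostly lower upon Lam-KD. None of 11 SpC markers, such as the meiotic arrest gene *aly* and the translation regulator *bol*, and none of 4 SpG markers were called, and their median log2 fold changes were 0.05 and 0.20. The summed level of the SpC markers was 1384, 1418 and 1379 TPM in Lam-KD testes and 1340, 1470 and 1290 TPM in controls, so that the groups overlapped. The testis meiotic arrest complex and the testis TAFs switch on the SpC genes. Of 13 arrest genes listed with them, only *tbrd-3*, a testis bromodomain gene, was called. It had 120, 128 and 113 TPM in Lam-KD testes, against 78.6, 78.3 and 53.9 TPM in controls (log2 fold change 0.69). None of 33 genes for sperm chromatin and tail proteins and none of 17 post-meiotic cup and comet genes were called, although 32 of the 33 and all 17 lay below 0, with medians of -0.27 and -0.29. Without the 1.5-fold threshold, 6 of the 17 cup and comet genes were lower, and 4 of the 13 arrest genes and 2 of the 11 SpC markers were higher. Of 19 dynein chains, the motors of the sperm tail, *Sdic3* rose by 0.64 and the Y-linked *kl-2* was lower at -0.72. *Sdic3* has near-identical neighbouring copies, among which reads cannot be placed with certainty, and *kl-2* was not called without control replicate 2 or 3.

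General cell functions also held few calls. With all 6 libraries and both thresholds, no gene was called among 80 ribosomal proteins, 48 proteasome subunits, 11 genes of glycolysis, 16 of lipid metabolism, 8 tubulins, 8 of the unfolded protein response, 14 of apoptosis and JNK signalling, 9 of the basement membrane or 13 mitochondrially encoded genes. Yet 76 of the 80 ribosomal proteins and 34 of the 48 proteasome subunits lay above 0, with medians of 0.17 and 0.13. Summed ribosomal protein levels were 74090, 72732 and 68936 TPM in Lam-KD testes, against 66120, 63605 and 53273 TPM in controls. None of the 11 inner nuclear membrane and LINC genes or of the 23 nuclear pore genes, whose products sit beside the lamina, was called, with medians of 0.13 and 0.15. Among 16 genes of heterochromatin and Polycomb repression only *esc*, a Polycomb subunit, was called, at 0.79, and not without Lam-KD replicate 1 or 2. The called genes were weakly expressed: their median of mean TPM was 8.64 for higher and 6.36 for lower genes, against 24.2 for all tested genes. Of the lower genes 47.3% had only a CG or CR number for a name, as had 36.8% of the higher genes and 39.2% of all genes. The 46 lists that were drawn up first, though with earlier results of these data known, held 705 tested genes. Of these, 74 were called (10.5%, against 6.41% of all genes), not counting 11 lists added after values were seen. Some of the 74 passed the filter on reads only through the group in which they were high, so that the share is a description. The plot of called members shows how these calls were spread over the lists.

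**Figure D1:**
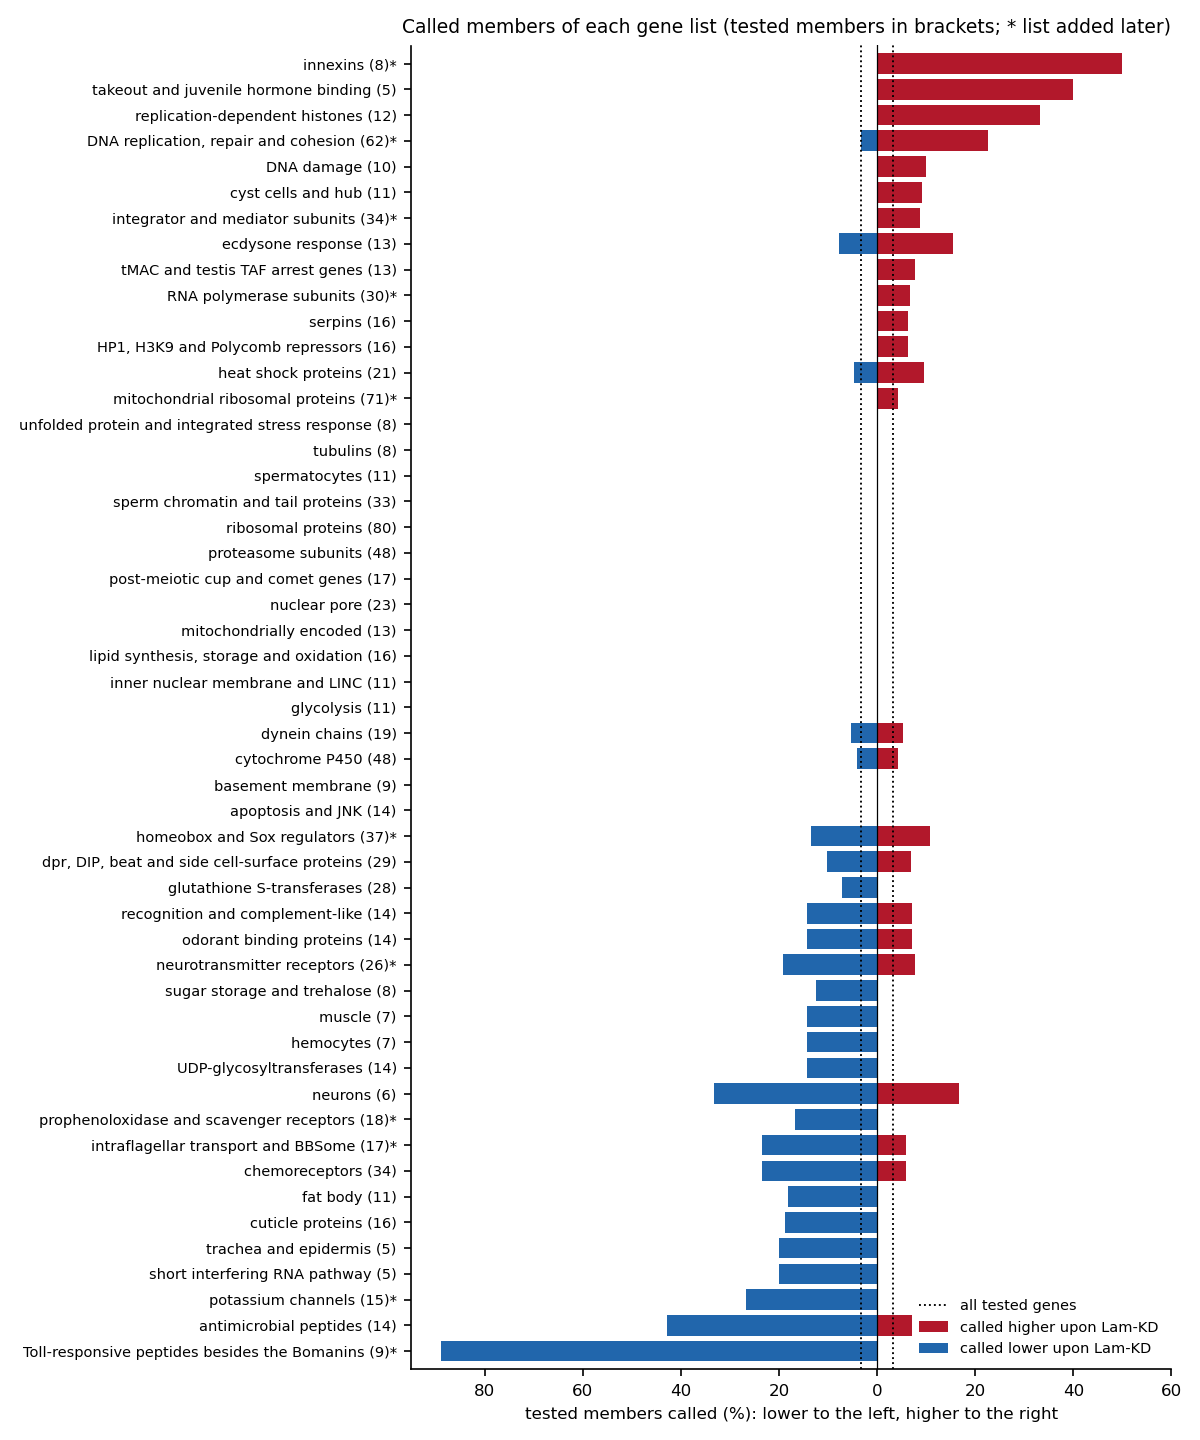
Share of the tested members of each gene list that was called higher (right, red) or lower (left, blue) upon Lam-KD, in percent. Lists with at least 5 tested members are shown with that number in brackets, stars mark lists added after values were seen, and dotted lines mark 3.19% higher and 3.22% lower among all 10318 tested genes. The bars of the immune peptides extend to the left, and those of the innexins to the right. Some bars come from genes that passed the filter on reads only through the group in which they were high and so had to differ. For the Lam-KD libraries these are the higher bars of the juvenile hormone binding, chemoreceptor, odorant binding and ciliary lists. Part of other higher bars, such as that of the histones, is of this kind too. For the controls these are the lower odorant binding bar and part of other lower bars, such as those of the immune peptides and of the ciliary genes.

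Many immune peptide genes were lower. The Toll pathway is an innate immune pathway that makes the fat body and blood cells secrete small peptides, among them the Bomanins, the Daisho peptides and the Baramicins, whereas the Imd pathway drives diptericins, attacins and cecropins. Of 14 tested antimicrobial peptide genes 6 were lower (42.9%, against 3.22% of all genes) and 1 was higher, and the median log2 fold change was -0.72. Of the lower genes, *BomBc2* and *BomT2* reached 10 reads only in the controls, so that they had to differ. Their part of the share is a description. All 6 lower genes are of the Toll-driven type.

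*BomS3* (FBgn0040736), the most abundant of the Bomanins here, had 38.4, 74.7 and 133 TPM in Lam-KD testes, against 342, 182 and 397 TPM in control testes, a log2 fold change of -1.90 ± 0.39. *BomS1* had 10.6, 9.98 and 51.2 TPM in Lam-KD testes, against 129, 69.6 and 132 TPM in controls (-2.40 ± 0.47). *BomS2* had 11.7, 19.2 and 38.7 TPM in Lam-KD testes, against 109, 73.7 and 112 TPM in controls (-2.27 ± 0.34). In each of these genes every Lam-KD library lay below every control, and Lam-KD replicate 3 was the highest of its group. *BaraA1*, which encodes a Baramicin precursor, had 3.13, 21.5 and 29.3 TPM in Lam-KD testes, against 97.4, 70.6 and 103 TPM in controls (-2.41). *BomBc2* and *BomT2* completed the group at -2.34 and -2.40, while *BomBc1* missed the threshold at -1.18 (adjusted *P* = 0.115).

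The same direction was seen in a further list of 9 genes, put together after their values were seen and sharing *BaraA1* with those above. It holds other Toll-responsive peptide genes, the stress peptide gene *TotA* and the receptor gene *Toll-9*. In this list 8 genes were lower and none higher, with a median of -1.88, and since it was chosen in view of these values the count supports nothing on its own. *GNBP-like3* and *Toll-9*, both in the count, reached 10 reads only in the controls, so that they had to differ. *Bbd*, a gene needed for the levels of Bomanin peptides, had 33.7, 44.5 and 62.3 TPM in Lam-KD testes, against 159, 112 and 168 TPM in controls (-1.76). The Daisho genes *Dso1* and *Dso2* were lower at -2.01 and -2.10. *TotA*, a Turandot gene whose secreted product follows stress and infection, had 172, 218 and 176 TPM in Lam-KD testes, against 429, 385 and 432 TPM in controls (-1.26 ± 0.14). *IM33* was called at -1.04, but its groups overlapped, with 44.7, 25.7 and 15.7 TPM in Lam-KD testes and 61, 61.8 and 40.3 TPM in controls. The count of 8 fell to 4 without Lam-KD replicate 2, to 3 without control replicate 1 and to 5 without control replicate 2, where only 7 of the 9 genes had enough reads to be tested without a control, and *BaraA1*, *Bbd* and *TotA* were called in the absence of any single library.

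Peptide genes of the Imd type did not pass the test. *DptA* had 18.1, 15.3 and 17.6 TPM in Lam-KD testes and 16.5, 10.9 and 16.5 TPM in controls (0.05, adjusted *P* = 0.909), and *DptB* was at -0.26. The attacin genes *AttA*, *AttB* and *AttC* lay between -0.15 and 0.14. *CecA1* had 16.7, 14.8 and 15.4 TPM in Lam-KD testes, against 7.33, 2.65 and 7.04 TPM in controls, and missed the threshold (1.27, adjusted *P* = 0.0634). The one antimicrobial peptide gene called higher was *Drsl5* (FBgn0035434), a relative of the antifungal drosomycin, with 166, 160 and 140 TPM in Lam-KD testes, against 7.62, 7.04 and 12.3 TPM in controls (3.95 ± 0.24). Immune peptides thus changed in both directions.

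**Figure D2:**
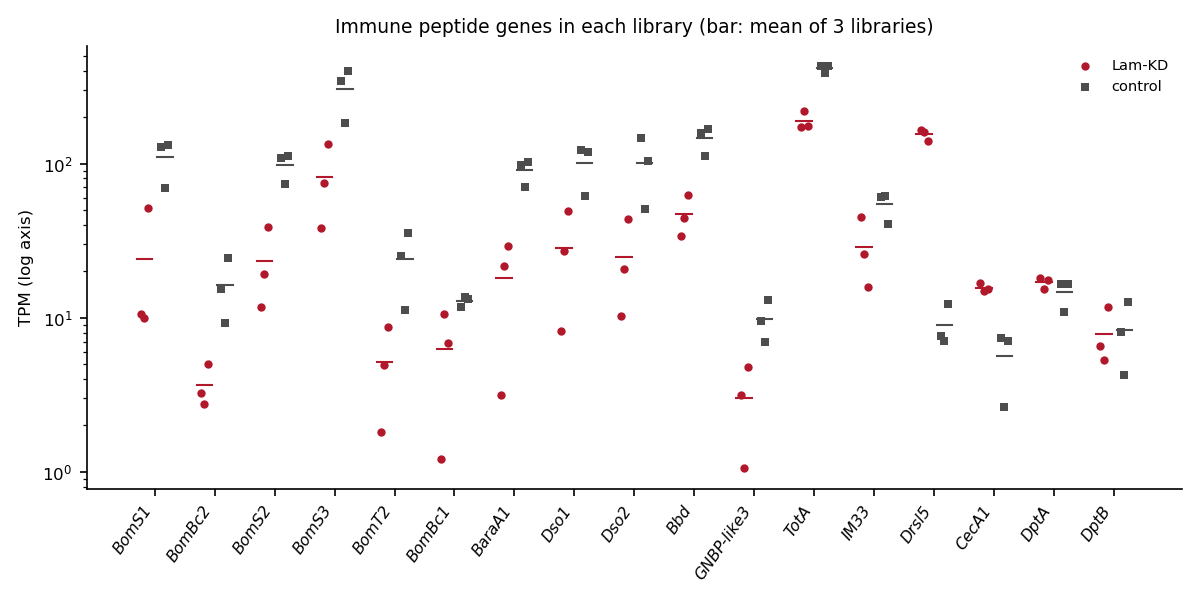
TPM of 17 immune genes on a log axis in the 3 Lam-KD (red circles) and 3 control libraries (grey squares), with a bar at each mean. The Bomanins, *BaraA1*, *Dso1*, *Dso2*, *Bbd* and *TotA* sit lower upon Lam-KD, *Drsl5* sits higher, and the diptericin genes overlap.

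Recognition genes changed in both directions, whereas the blood cell genes called were lower. Of 14 genes of recognition proteins and complement-like proteins, *GNBP-like3* (-1.88) and *Tep3* (-0.72) were lower and *Tep1* (1.17) was higher. In 7 blood cell markers the only call was *eater*, a phagocytic receptor of plasmatocytes, with 2.58, 2.42 and 2.13 TPM in Lam-KD testes, against 6.2, 4.51 and 4.45 TPM in controls (-1.18). *Hml*, *Pxn* and the crystal cell gene *PPO2* were not called at 0.15, -0.34 and -0.94. *Vago*, which is induced through Dicer-2 during virus infection in flies, was lower at -1.18, and the other 4 of the 5 tested genes of the siRNA list were not called. In 18 genes of scavenger receptors and prophenoloxidases, a list added later, *Sr-CII* (-1.22), *NimB3* (-1.07) and *eater* were lower and none was higher. *GNBP-like3* and *Tep1* lost their calls without Lam-KD replicate 1 or 2, *Tep3* without control replicate 2, and *Vago* and *NimB3* without Lam-KD replicate 1 or 3.

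Markers of the tissues that could adhere to the testis moved less. Of 11 fat body markers 2 were lower and none was higher, with a median of -0.43. The larval storage protein gene *Lsp1gamma* had 1140, 1354 and 919 TPM in Lam-KD testes, against 2031, 1593 and 1652 TPM in controls (-0.73), and *Apoltp* was lower at -0.89, but neither was called without Lam-KD replicate 1, nor *Lsp1gamma* without Lam-KD replicate 3 or control replicate 1. The fat body genes summed to 6269, 7833 and 4890 TPM in Lam-KD testes and to 9100, 6087 and 6422 TPM in controls, so that the groups overlapped, and none of the 11 was at 0. In RNA of a whole tissue, fewer cells of a type and less RNA per cell cannot be told apart. The part of fat body and blood cells in the immune genes was not tested.

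Salivary gland glue genes set the controls apart from each other. None of the 10 salivary gland genes passed the filter on reads. Their sum was 4.2, 1.93 and 5.14 TPM in Lam-KD testes and 10.9, 452 and 695 TPM in controls. *Sgs7*, a glue protein gene, was at 0, 1.14 and 3.37 TPM in Lam-KD testes, against 4.75, 201 and 280 TPM in controls, while *ng2* and *ng3* were at 0 in every library and the salivary gland regulator *fkh* was under 0.2 TPM throughout. Glue genes are switched on by ecdysone late in the third instar, and of 13 ecdysone response genes *Hr3*, a nuclear receptor, was lower with 7.12, 7.84 and 7.23 TPM in Lam-KD testes, against 14.4, 14.8 and 13 TPM in controls (-1.02). *Eip93F* and *MsrA* were higher at 0.69 and 0.56, but not without Lam-KD replicate 1 or 2, and *MsrA* was called only with all libraries or without control replicate 1. The part of larval stage or adhering gland in the changes was not tested. Without control replicate 1, 2 or 3, 4 of the 6 antimicrobial peptide genes were called lower, and *BomBc2* and *BomT2* had too few reads to be tested. The same count was 3 without Lam-KD replicate 1 and 2 without Lam-KD replicate 2, and only *BaraA1* and *BomS2* were called in the absence of any single library.

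Somatic cells inside the testis showed few changes. Of 11 cyst cell and hub markers, *tj*, a regulator of early cyst cells, was higher with 2.87, 2.3 and 2.45 TPM in Lam-KD testes, against 1.39, 1.9 and 1.29 TPM in controls (0.66). This call was lost when any library but control replicate 2 was left out. The hub ligand *upd1* and the cyst cell regulators *eya* and *zfh1* were not called, at 0.18, 0.14 and 0.19. The regulator *so* and the adhesion gene *CadN* had adjusted *P* values of 0.023 and 0.0187 at -0.66 and -0.64 but did not reach 1.5-fold in mean TPM. With the 1.5-fold threshold on edgeR's fold instead, both were called lower.

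Several genes of gap junctions were higher. Innexins are the channel proteins of insect gap junctions, and in the fly testis *zpg* in germ cells and *Inx2* in cyst cells couple both lineages. In this list, which was chosen after its values were seen, 4 of 8 members were higher and none lower. *Inx7* (FBgn0027106) had 6.32, 5.72 and 5.16 TPM in Lam-KD testes, against 2.42, 2.41 and 2.12 TPM in controls (1.22 ± 0.20), and *ogre* had 9.93, 9.2 and 8.84 TPM in Lam-KD testes, against 6.06, 4.76 and 3.19 TPM in controls (0.92). *Inx3* and *Inx2* rose by 0.68 and 0.52. In these 4 genes the groups did not overlap. *zpg*, at 10.9, 10.1 and 10.9 TPM in Lam-KD testes and 9.01, 12.1 and 5.33 TPM in controls, and *Inx5*, the most abundant member, were not called. Only *Inx7* was called in the absence of any single library. The count fell to 1 without Lam-KD replicate 1 and to 2 without Lam-KD replicate 2. With the 1.5-fold threshold on edgeR's fold it was 3, without *Inx2*.

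Among 62 genes of DNA replication, repair and sister chromatid cohesion, also listed after their values were seen, 14 were higher and 2 lower, with a median of 0.15. The higher share was 22.6%, against 3.19% of all genes. With the 1.5-fold threshold on edgeR's fold 11 were higher, without *SMC1*, *SMC3* and *Ptip*, and with DESeq2 12 were. *Prim2* (FBgn0259676), a primase subunit, had 5.8, 5.73 and 4.02 TPM in Lam-KD testes, against 1.64, 2.64 and 1.31 TPM in controls (1.41 ± 0.26). The origin licensing gene *Cdc6* was higher at 1.20, the helicase genes *Rtel1* and *Pif1* at 1.10 and 0.91, and the separase gene *Sse* at 0.93. The cohesin genes *SMC1* and *SMC3* both rose by 0.53, and the cohesin regulator *pds5* rose by 0.70. *mei-W68*, which encodes the enzyme that cuts DNA for meiotic recombination in females, had 4.28, 4.81 and 3.35 TPM in Lam-KD testes, against 2.59, 2.24 and 1.5 TPM in controls (0.87). The RecQ helicase gene *Blm* went the other way with 21.8, 22.2 and 20.3 TPM in Lam-KD testes, against 33.6, 40.3 and 33.6 TPM in controls (-0.83 ± 0.08). Of the 14 higher genes, *Prim2*, *Rtel1*, *pds5* and *chif* were called in the absence of any single library. There were 4 higher genes without Lam-KD replicate 1 or 2, 7 without Lam-KD replicate 3, 8 without control replicate 3 and 9 without control replicate 1.

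Reads of histone genes that are transcribed in S phase were higher in part in these libraries of poly(A)+ RNA. Of 12 tested copies 4 were called higher and none lower, but *His2B:CG33890*, without a read in any control, passed the filter only through the Lam-KD libraries. *His2A:CG31618* had 266, 129 and 575 TPM in Lam-KD testes, against 23.7, 42.6 and 45.6 TPM in controls. The copies are near-identical, so that reads cannot be assigned to a single one with certainty. Summed over 4 copies, H2A reads were 1803, 1623 and 1531 in Lam-KD testes and 1483, 1185 and 1141 in controls, without correction for depth. For 7 H2B copies the sums were 2236, 2305 and 1871 reads in Lam-KD testes and 1715, 1383 and 1294 reads in controls. The families thus differed less than their single copies.

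Heat shock genes had the same problem. *Hsp70Bb* was called higher at 1.97 and its near-identical copy *Hsp70Bbb* lower at -3.02. All 6 Hsp70 copies summed to 1335, 977 and 712 reads in Lam-KD testes and to 449, 547 and 630 reads in controls, so that the sum was higher in every Lam-KD library, if barely so in TPM, at 43.3 in Lam-KD replicate 3 and 42.3 in control replicate 3. Of the 21 heat shock genes tested, the cochaperone gene *stv* was the only further call, at 0.51.

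Genes known from the nervous system and the senses changed in both directions at low levels. Of 34 tested chemoreceptor genes, which encode the receptors for odours and tastes, 8 were lower (23.5%) and 2 higher, with a median of -0.24. *Ir100a*, an ionotropic receptor gene, had 2.93, 3 and 2.87 TPM in Lam-KD testes, against 7.3, 7.87 and 9.9 TPM in controls (-1.60 ± 0.21). The gustatory receptor gene *Gr22f* had 7.14, 7 and 9.58 TPM in Lam-KD testes, against 18.8, 15.9 and 22.3 TPM in controls (-1.36). *Ir76a*, *Gr23a*, *Or49b*, *Ir40a*, *Gr61a* and *Or45b* lay between -1.35 and -0.72. The odorant receptor gene *Or65c* and the gustatory receptor gene *Gr97a* were at the floor in controls and read in all Lam-KD libraries. *Ir100a*, *Gr22f* and *Ir76a* were called lower in the absence of any single library. The count of lower chemoreceptors was 3 without Lam-KD replicate 1, 5 without Lam-KD replicate 2, and 4 without Lam-KD replicate 3 or control replicate 1.

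Neuronal markers did not move as a group. *Syt1*, a calcium sensor of synaptic vesicles, had 10.1, 11.4 and 9.47 TPM in Lam-KD testes, against 5.09, 3.95 and 4.31 TPM in controls (1.32 ± 0.12). The active zone gene *brp* was lower at -0.80, with 2.93, 3.2 and 3.19 TPM in Lam-KD testes, against 4.9, 4.39 and 5.33 TPM in controls, but was not called without control replicate 3. The vesicle fusion gene *nSyb* was lower at -1.10 with all 6 libraries, but not when any of them except control replicate 2 was left out. The remaining 3 of the 6 neuronal markers tested were not called.

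Some potassium channel genes were lower. In 15 tested genes of a list added after values were seen, 4 were lower and none higher, with a median of -0.41. *Task6* (FBgn0038165), a leak channel gene, had 1.78, 1.74 and 1.76 TPM in Lam-KD testes, against 5.3, 6.99 and 7 TPM in controls (-1.97 ± 0.17). *Shawl*, a voltage-gated channel gene, had 3.68, 4.54 and 3.94 TPM in Lam-KD testes, against 8.59, 8.83 and 8.8 TPM in controls (-1.09 ± 0.12). *qvr*, whose product regulates the Shaker channel, was lower at -1.67 and *Shal* at -1.15. All but *Shal* were called in the absence of any single library, and *Shal* lost its call without Lam-KD replicate 1 or 2 or control replicate 1. Without control replicate 2, 2 genes of the list, *sei* and *sand*, were called higher beside the 4 lower ones.

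Of 26 neurotransmitter receptor genes, again a later list, 5 were lower and 2 higher. The GABA receptor gene *GABA-B-R2* had 1.58, 1.72 and 1.33 TPM in Lam-KD testes, against 3.28, 4.77 and 4.05 TPM in controls (-1.47), and was the only one of the 7 called in the absence of any single library. Among 29 genes of the Dpr, DIP, Beat and Side families, cell surface proteins by which neurons recognise their partners, *dpr19* and *side-II* were higher and *DIP-kappa*, *DIP-theta* and *side-VIII* were lower. *DIP-theta* had 1.52, 1.5 and 1.52 TPM in Lam-KD testes, against 2.75, 3.05 and 4.04 TPM in controls (-1.21), and *side-II* was at 1.33. In 14 odorant binding protein genes *Obp58c* was higher and *Obp56a* (-1.76) and *Obp50d* (-1.43) were lower. *Obp58c* passed the filter on reads only through the Lam-KD libraries and the lower genes only through the controls, so that they had to differ. *DIP-kappa* and *side-VIII* lost their calls without Lam-KD replicate 1 or 2, and the lower odorant binding protein genes without Lam-KD replicate 1 or 3.

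Ciliary genes were in part lower. Intraflagellar transport (IFT) and the BBSome build and maintain the cilia of sensory neurons, whereas the sperm tail of the fly forms without IFT. In 17 genes of a list added later, 4 were lower and 1 was higher. The IFT gene *nompB* had 3.74, 4.21 and 5.17 TPM in Lam-KD testes, against 9.33, 8.27 and 8.63 TPM in controls (-1.09 ± 0.16), and was called in the absence of any single library. *BBS4* was lower at -2.58, but overlaps with its neighbour *CG13229*, which was lower as well. *IFT57* was lower at -1.66, but not without Lam-KD replicate 2 or 3, and *BBS1* at -0.78, but not without any Lam-KD library or control replicate 2. *Ttc26*, an IFT gene, had 0.85, 0.921 and 1.73 TPM in Lam-KD testes, against 0.165, 0.311 and 0.183 TPM in controls (2.30), and its call was lost without control replicate 1. The count of lower genes was 2 without Lam-KD replicate 2 or 3 or control replicate 2.

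**Figure D3:**
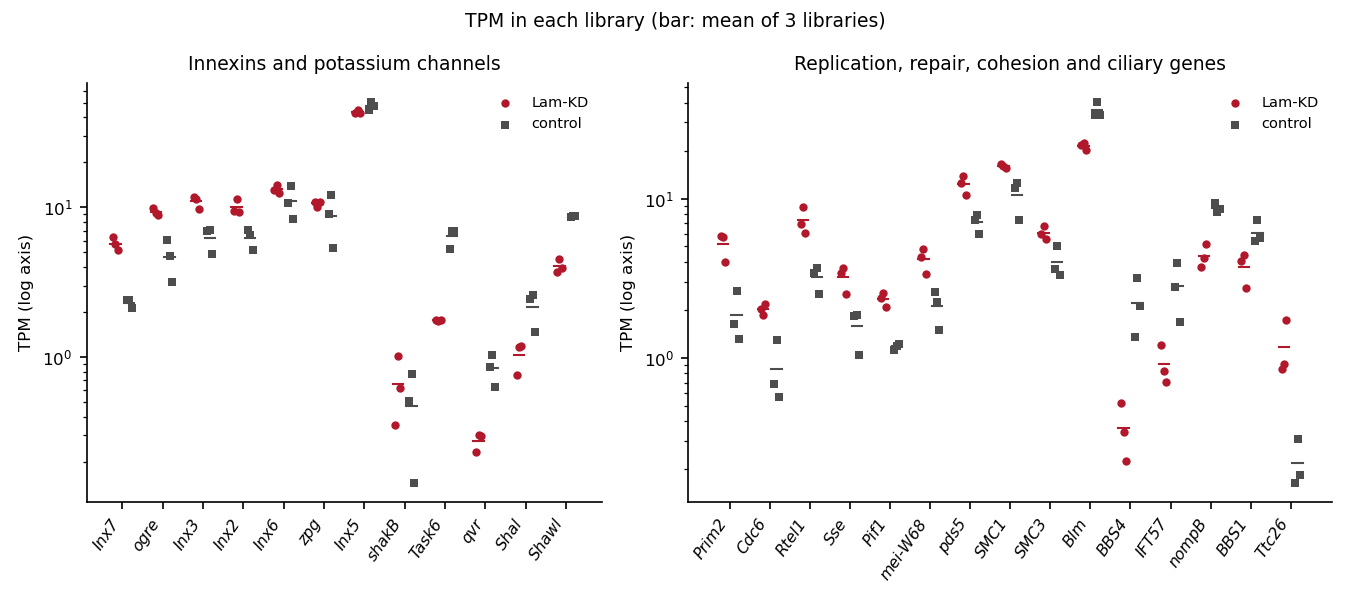
TPM on log axes in the 3 Lam-KD (red circles) and 3 control libraries (grey squares), with bars at the means, for all 8 innexins and the 4 called potassium channel genes (left) and for 10 genes of replication, repair and cohesion and the 5 called ciliary genes (right). The groups do not overlap for *Inx7*, *Task6*, *Prim2*, *Blm* or *nompB*, and overlap for *zpg* and *shakB*.

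Enzymes of detoxification and of hormone metabolism held single genes with large changes. Of 48 P450 genes, enzymes that oxidise toxins and hormones, 2 were higher and 2 lower, leaving aside the near-identical copies *Cyp12d1-d* and *Cyp12d1-p*, of which *Cyp12d1-d* was called higher. *Cyp4e3* (FBgn0015035) had the largest decrease of all called genes whose groups did not overlap, with 1.55, 1.24 and 1.4 TPM in Lam-KD testes, against 18.4, 31.4 and 93.6 TPM in controls (-5.22 ± 0.70). Its controls spread widely while its Lam-KD libraries lay close together. *Cyp310a1* had 38.7, 35.8 and 37.4 TPM in Lam-KD testes, against 10.7, 9.44 and 12 TPM in controls (1.70 ± 0.14). The GMC oxidoreductase *CG9518* (FBgn0030590) had 0.133, 0.181 and 0.142 TPM in Lam-KD testes, against 4.84, 5.35 and 5.44 TPM in controls (-5.16). It passed the filter on reads only through the controls, so that it had to differ. In the same family, of which 4 genes were tested, *fiz* went up with 9.26, 10.8 and 7.47 TPM in Lam-KD testes, against 1.35, 0.87 and 0.749 TPM in controls (3.11), and *Gld* was higher at 0.91, though not without Lam-KD replicate 1 or 2. Glutathione S-transferases were called in 2 of 28 cases, and these were the neighbours *GstE8* (-1.35) and *GstE9* (-1.34). Of 14 UDP-glycosyltransferases, *Ugt37A3* (-1.79) and *Ugt303B2* (-0.76) were lower, the first not without Lam-KD replicate 2 and the other not without Lam-KD replicate 1 or 3.

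Structural genes of other tissues were low and went down where they were called. The cuticle genes *TwdlL*, *Cpr76Bd* and *Cpr51A* were lower at -2.20, -1.08 and -1.05, out of 16 tested. Each of these calls was lost without Lam-KD replicate 1 or 3. *TwdlL* passed the filter on reads only through the controls, so that it had to differ. *dpy*, a giant protein of the apical matrix in trachea and epidermis, had 0.53, 0.371 and 0.363 TPM in Lam-KD testes, against 0.821, 0.776 and 0.716 TPM in controls (-0.98). In muscle only *Mhc* was called, at -0.71, with overlapping groups. Of 8 genes of sugar storage, the trehalose synthesis gene *Tps1* was lower at -0.92, and of 3 digestive genes of the gut *Jon74E* at -1.56, a call lost without Lam-KD replicate 1. The serpin gene *Spn42Da* was higher with 31, 31.3 and 29.3 TPM in Lam-KD testes, against 19.2, 13.8 and 14.3 TPM in controls (0.73), out of 16 serpins tested.

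A small set of genes was read in 1 group and nearly absent in the other. Here, at the floor means no more than 3 reads in each library of a group, and read means at least 10 reads in each library. By this rule 27 genes were at the floor in controls and read upon Lam-KD, and *Toll-9* and *CG17575* were at the floor upon Lam-KD and read in controls. Such genes passed the filter on reads only through the group in which they were high, so that they had to differ, and these numbers are a description. Of the 27 genes, 7 had no read in any control. They lay on arms 2L (7 genes), 2R (4), 3L (3), 3R (8) and X (5).

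*CG33664* (FBgn0053664) had 246, 223 and 235 reads in Lam-KD testes and 0 in each control, with a mean of 97.6 TPM upon Lam-KD. *CG3526* had 502, 463 and 468 reads in Lam-KD testes, against 1, 0 and 0 in controls, a ratio of 1249 with a 95% interval of 224 to 49371 that covers counting error only. *Jhbp13* (FBgn0032494), of a family that binds juvenile hormone, had 102, 116 and 102 reads in Lam-KD testes and 0 in each control, at least 93.0-fold higher when 3 reads over the control group are taken as the limit. The Lam-KD libraries lay close together in all 3 genes. *dpr19* had 67, 53 and 59 reads in Lam-KD testes, against 0, 0 and 2 in controls (ratio 78.0). *Rh5*, the gene of a photoreceptor rhodopsin, had 46, 34 and 40 reads in Lam-KD testes, against 2, 0 and 1 in controls (ratio 34.9, interval 11.6 to 171). *Obp58c*, *Or65c* and *Gr97a*, genes of smell and taste, had between 11 and 26 reads in Lam-KD libraries and at most 2 in a control. The remaining genes of the set had ratios or lower limits between 5.35 and 433, and the P450 copy *Cyp12d1-d* cannot be separated from *Cyp12d1-p*, with 32, 50 and 25 reads for both in Lam-KD testes, against 47, 13 and 9 in controls.

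**Figure D4:**
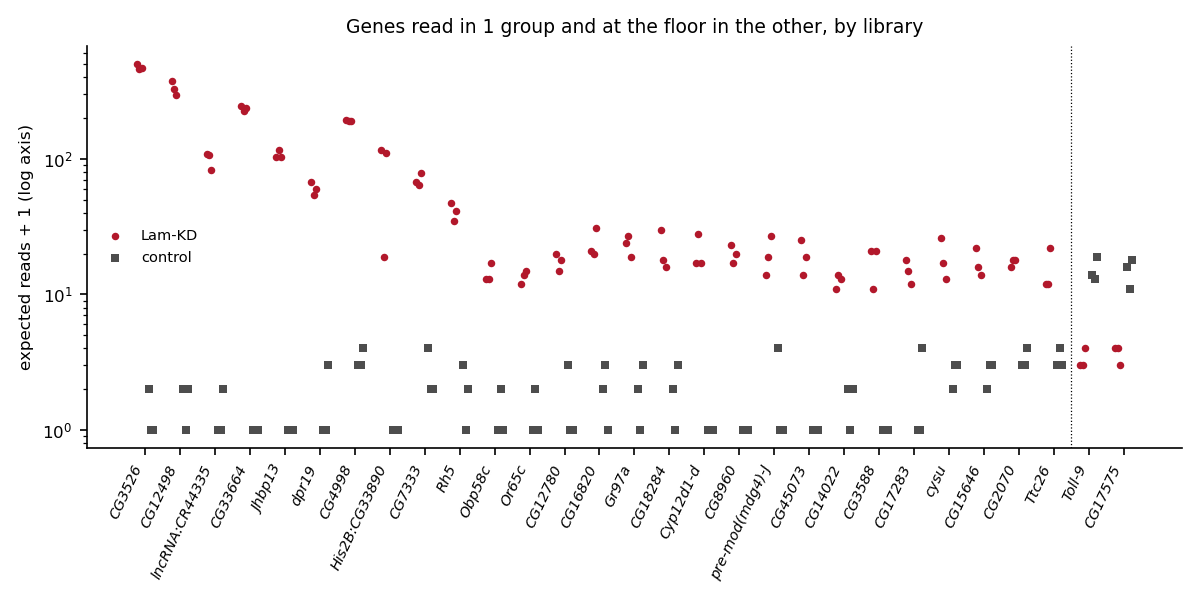
Expected reads plus 1 on a log axis in the 3 Lam-KD (red circles) and 3 control libraries (grey squares) for the 27 genes at the floor in controls (left of the dotted line) and the 2 genes at the floor upon Lam-KD. *CG3526*, *CG12498*, *CG33664*, *CG4998* and *Jhbp13* have over 100 reads in each Lam-KD library, and most of the others have 10 to 30.

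Changed genes were next placed in the order of tested genes along each arm, taken from the Release 6 gene table. Of 646 neighbour places of lower genes, 68 held another lower gene (10.5%, against 3.22% of all genes) and 3.25% held a higher gene. Of 648 neighbour places of higher genes, 38 held another higher gene (5.86%, against 3.19%) and 3.24% a lower gene. Counted by stretches, 6 runs of 3 or more genes in the same direction and 39 pairs were found. The runs held 9 higher and 11 lower genes. In 6 of these 45 stretches genes overlapped, so that reads may belong to either gene. Some neighbours passed the filter on reads only through the group in which they were high, so that they had to differ. Among them were all genes of the higher runs on X and 2L, and the lower genes *BomBc2*, *BomT2* and *GNBP-like3*. The shares and the counts of runs and pairs are thus a description.

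The longest run was that of *BomS1*, *BomBc2*, *BomS2*, *BomS3* and *BomT2* on 2R, the Bomanin cluster, with log2 fold changes from -2.40 to -1.90. Its neighbour *BomBc1* was at -1.18 and the next genes beyond, *CG14505* and *Idgf5*, were at -0.54 and -0.28. Pairs of immune genes elsewhere were *Dso1* with *Dso2* and *GNBP-like3* with *Bbd* on 2R, and *CG16713* with *IM33* on 2L. Clusters of related genes thus made up part of the runs, and genes that arose by duplication are not independent of each other. Only 2 of the 5 Bomanins were called without Lam-KD replicate 1 and 1 without Lam-KD replicate 2. When a control library was left out, *BomBc2* and *BomT2* had too few reads to be tested and the other 3 stayed called.

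On X, *CG12498*, *CG3526* and *CG3588* lay side by side. *CG12498* (FBgn0040356) had 76.4, 72.6 and 67.1 TPM in Lam-KD testes, against 0.219, 0 and 0.251 TPM in controls, *CG3526* (FBgn0040355) had 95.5, 95.3 and 96.7 TPM in Lam-KD testes, against 0.2, 0 and 0 TPM in controls, and *CG3588* had 1.26, 0.584 and 1.08 TPM in Lam-KD testes and 0 in each control. The tested genes next to them were *w* on one side (0.48) and *CG3592* on the other (-0.21). Beyond *w*, *CG32795* was at -0.03 and *kirre*, a cell adhesion gene, was higher with 3.33, 2.75 and 1.87 TPM in Lam-KD testes, against 1.09, 1.12 and 0.554 TPM in controls (1.44). The gene *w*, for eye colour, is a marker of many fly transgenes, as are *y* and *v*. *y* (FBgn0004034), for body colour, had 4.99, 5.48 and 5.25 TPM in Lam-KD testes, against 0.37, 0.186 and 0.164 TPM in controls (4.27 ± 0.30). It passed the filter on reads only through the Lam-KD libraries, so that it had to differ. *w* had 21.4, 23.3 and 18.1 TPM in Lam-KD testes, against 14.1, 14.8 and 13.5 TPM in controls. Its groups did not overlap and its adjusted *P* was 0.0167, but it did not reach 1.5-fold in mean TPM. *v* was at 0.71 and was not called either. Marker genes and strain differences come with the hairpin strains, and their part in this run and in the genes at the floor cannot be told apart from Lam-KD.

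The second higher run, on 2L, joined *Jhbp14*, *Jhbp13* and *CG16820*. *Jhbp14* had 2.8, 3.68 and 3.48 TPM in Lam-KD testes, against 1.29, 0.543 and 0.719 TPM in controls (1.80), and *CG16820* had 20, 19 and 30 reads in Lam-KD testes, against 1, 2 and 0 in controls. The flanking genes *Prosalpha6T*, a testis proteasome gene, and *Naa20B* were at -0.26 and -0.55. None of the genes of this run and of the run beside *w* could be tested once a Lam-KD library was left out, as they then had 10 reads in fewer than 3 libraries. The third higher run, on 3L, had small changes: *stv*, the actin binding gene *Abp1* and the growth inhibitor gene *Tgi* were at 0.51, 0.74 and 0.79 with all groups apart, and *stv* lost its call without Lam-KD replicate 1 or 2.

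The remaining lower runs held genes with numbers only. *CG44622*, *CG44623* and *CG8654* on 2R were at -1.10, -0.98 and -0.66. *CG44622* lost its call without Lam-KD replicate 1 and *CG8654* without control replicate 3. Beyond *CG16894*, which was not called at -0.30, *CG11044* was lower too, at -1.03. *CG13023*, *CG11905* and *CG13022* on 3L were at -1.73, -1.24 and -1.90. *CG13022* had 18.3, 18 and 20 TPM in Lam-KD testes, against 63.6, 60.1 and 70.5 TPM in controls, and was called in the absence of any single library, whereas *CG13023* and *CG11905* lost the call without any library but control replicate 2. Among the higher pairs were *Inx7* with *Inx2* on X, *gsb-n* with *gol* on 2R, and the overlapping genes *osp* and *Adh* on 2L. *Adh*, for alcohol dehydrogenase, had 100, 101 and 51 TPM in Lam-KD testes, against 35.9, 9.24 and 12.3 TPM in controls (2.05 ± 0.39).

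**Figure D5:**
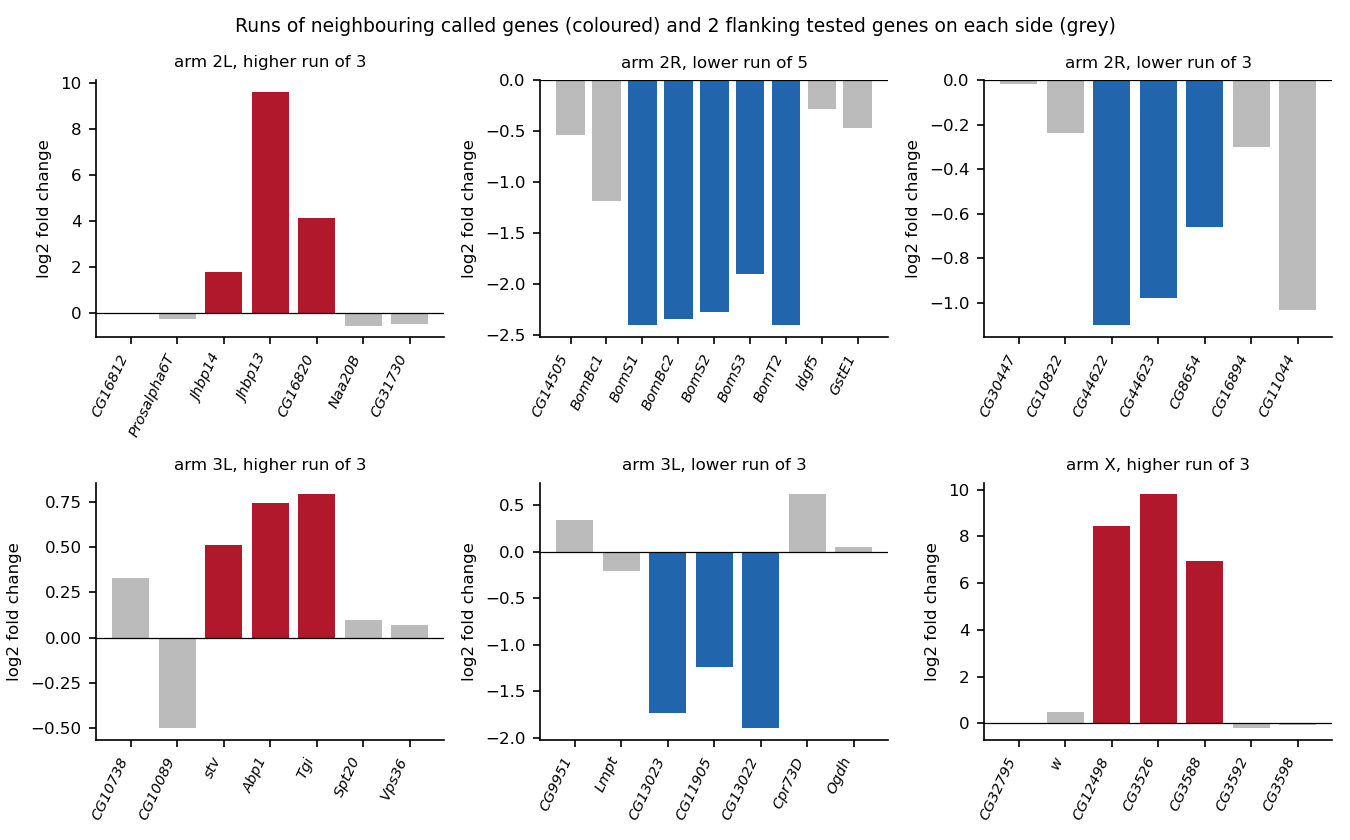
Log2 fold change, Lam-KD over control, of the 6 runs of 3 or more neighbouring called genes (red higher, blue lower) with the 2 nearest tested genes on each side (grey), in map order on arms 2L, 2R, 3L and X. Grey genes next to a run are not called, while *CG11044* farther out is. Vertical scales differ between panels.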

How the data were processed

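RNA-seq of 3 Lam-KD and 3 control libraries was used, grouped by the genotype in the labels. The authors deposited expected counts and TPM per gene, which they made with Salmon on the BDGP5 annotation without normalization of the counts. Expected counts were rounded here and tested with edgeR 4.0.16 (limma 3.58.1, R 4.3.3; TMM, quasi-likelihood, Benjamini-Hochberg), after requiring 10 or more expected reads in 3 or more libraries and leaving out *Lam* and *LamC*, which were read from a fit with all genes. Calls required an adjusted *P* under 0.05 and a fold of mean TPM over 1.5. The test was checked on simulated counts. The SE is that of the log2 fold change. Between 5651960 and 7437111 reads per library leave weak genes with wide errors, and intervals and limits cover counting error only. Gene families, tissue markers and runs were chosen with earlier results of these data known, and stated lists were added after their values were seen. Named genes are the RNAi targets, called members of each list whose groups did not overlap (up to 6 per direction, by fold change), the genes of runs, the 15 with the largest changes in each direction, and markers whatever their call. Others were chosen after their values were seen. Symbols, arms and neighbour order came from the Release 6 gene table, whose coordinates were not used, as its build differs. DESeq2 1.42.0, other normalization, filters, thresholds, a replicate block and omission of each library were alternatives. Grouping of called genes by protein similarity was not run, and single genes that belong to the counts are not reported here. Python 3.11.15 with pandas 2.3.3, numpy 2.4.6, scipy 1.17.1 and matplotlib 3.10.9 was used otherwise.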

Additional observations from a re-analysis of the deposited data

How the results depend on the processing

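No named gene changed its direction under any alternative. Of 227 named genes, 83 were called under all 13 settings, 38 were called wherever they could be tested, and 106 lost the call in at least 1. With all 6 libraries, counts moved by over 1.5 times in few cases. Without the fold threshold there were 548 higher genes (329 with it), 757 lower genes (332), 117 called list members (74) and 54 genes in runs of 3 or more (20). The threshold on mean TPM thus took out more lower than higher genes, and the near-equal shares of both depend on it. Runs held 34 genes with unadjusted *P*, and likewise when 1 gene not called was allowed inside a run.

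Omission of single libraries gave 145 to 495 higher and 183 to 325 lower genes, 33 to 81 called list members, and 0 to 28 genes in runs. Lower antimicrobial peptide genes numbered 2 to 6, lower chemoreceptors 3 to 8, higher innexins 1 to 4, higher genes of replication, repair and cohesion 4 to 16, lower ciliary genes 2 to 4 and lower potassium channel genes 3 to 4, with 2 higher ones without control replicate 2. Without a Lam-KD library 47 of the 661 called genes could not be tested, and without a control library 20, as they had 10 reads in fewer than 3 libraries.

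Libraries with the same replicate number deviated together only weakly, with correlations of 0.059, 0.073 and 0.177, and Lam-KD replicate 2 was closer to control replicate 1 (0.107), so that the numbers were not taken as pairs. With the replicate block there were 423 higher and 404 lower genes, 96 called list members and 28 genes in runs, and 7 antimicrobial peptide and 10 chemoreceptor genes were lower. The block kept all 661 calls. Grouping of called genes by protein similarity was not run.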

Other observations

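Regulators that pattern the body axis and the nervous system changed in both directions. Of 37 tested homeobox, Sox and related homeotic genes, a list put together after values were seen, 4 were higher and 5 lower, with a median of -0.02. *Sox21b* had 4.28, 4.13 and 4.51 TPM in Lam-KD testes, against 0.421, 0.398 and 0.233 TPM in controls (log2 fold change 3.80 ± 0.24). It passed the filter on reads only through the Lam-KD libraries, so that it had to differ. The Bar homeobox gene *B-H2* had 13.4, 14.3 and 12.3 TPM in Lam-KD testes, against 5.04, 5.97 and 3.26 TPM in controls (1.41), and *inv*, the neighbour of *engrailed*, was higher at 1.17. *gsb-n* was higher at 1.61. The zinc finger gene *tsh* had 0.876, 0.758 and 0.716 TPM in Lam-KD testes, against 1.75, 1.91 and 1.7 TPM in controls (-1.27), and *otp* was lower at -0.74. The lower calls of *ro*, *lbe* and *pdm3* were each lost without Lam-KD replicate 1 or 2.

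Lists of housekeeping complexes added later had single calls, all higher. These were 3 of 71 mitochondrial ribosomal proteins (4.23%), 3 of 34 Integrator and Mediator subunits (8.82%) and 2 of 30 RNA polymerase subunits (6.67%). Of all genes 3.19% were higher, and the medians of these lists were 0.21, 0.21 and 0.24. With the 1.5-fold threshold on edgeR's fold instead of mean TPM, 2, 3 and 0 of them were called. *IntS12* had 5.21, 4.79 and 3.42 TPM in Lam-KD testes, against 0.678, 1.71 and 1.13 TPM in controls (1.88), and *MED17* had 32.9, 30.3 and 30.4 TPM in Lam-KD testes, against 18.1, 19.9 and 11.4 TPM in controls (0.85). *IntS12* passed the filter on reads only through the Lam-KD libraries, so that it had to differ. *mRpS35* and *mRpL36* lost their calls without Lam-KD replicate 1 or 2, *Polr3E* without Lam-KD replicate 1, and *Polr3B* without any Lam-KD library or control replicate 3.

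Some of the largest changes fell outside every list. *Muc4B*, a mucin gene on X, had 16.3, 15.9 and 15.9 TPM in Lam-KD testes, against 0.469, 0.473 and 0.208 TPM in controls (5.54 ± 0.22). *CG2772* had 17.1, 19.9 and 18.1 TPM in Lam-KD testes, against 0.412, 0.693 and 0.457 TPM in controls (5.04). Of the lower genes, *sordd2* had 5.8, 7.77 and 9.03 TPM in Lam-KD testes, against 53.4, 49.9 and 49.7 TPM in controls (-2.87), and *CG42578* had 31.7, 18.3 and 17.3 TPM in Lam-KD testes, against 144, 145 and 118 TPM in controls (-2.70). In each of these 4 genes the groups did not overlap. *Muc4B* and *CG2772* passed the filter on reads only through the Lam-KD libraries, so that they had to differ.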
